A study of Homo sapiens with 17 samples.

Results

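The genes described here are 39 genes of the hepatocyte, the main secretory and metabolic cell of the liver, out of 19974 protein-coding genes on chromosomes 1 to 22 and X. They are genes that FOXA proteins are known for in liver, and a ChIP-seq peak was assigned to a gene when its summit lay inside the gene or within 50 kb of its ends. Gene ends came from RefSeq on GRCh38.p14, where the 39 genes form 32 loci: ALB and AFP, the 3 fibrinogen genes, the genes APOA1, APOA4, APOA5 and APOC3, and SERPINA1 and SERPINA6 are neighbours that can share peaks. By role there are 7 plasma carriers, 8 genes of lipid transport, 8 of coagulation and fibrinolysis, 7 other inhibitors and inflammatory proteins, 7 metabolic enzymes and 2 regulators. No expression data were used here, so whether any of these genes is transcribed in the cells studied was not checked.

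The host cells were U2OS, a human osteosarcoma line, and no hepatocytes were studied. Tet-on lines made a Flag-tagged factor after 500 ng/ml doxycycline for 4 days, the dose given by the treatment labels. The 8 factors were FOXA1, FOXA2 and FOXA3 at full length, the same 3 proteins with the CTD deleted, SOX2 at full length, and SOX2 fused to the CTD of FOXA2. Each factor had 2 biological replicates, and 1 input sample completed the 17 samples. Whether a line is 1 clone is not given in the sources used here, and Flag ChIP reads only the introduced protein, at the level the construct drives. All groups therefore share the osteosarcoma chromatin, the promoter system and the drug, and differ in the protein made.

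FOXA proteins are forkhead transcription factors that open compact chromatin, and in liver development they act early at hepatocyte genes, before those genes are switched on. Regulatory DNA of ALB, TTR, TAT, PCK1 and IGFBP1 has served as a textbook setting for FOXA binding in liver, where other liver factors bind alongside. SOX2 is a factor of pluripotent and neural cells from a different family, with a different DNA motif. The design asks whether the CTD alters where each FOXA protein binds and whether the FOXA2 CTD alters where SOX2 binds.

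Each group was represented by 1 combined peak list made from both replicates, so no comparison between lists has a replicate check and no test was possible. The lists held 37532 peaks for FOXA1, 50539 for FOXA1 without its CTD, 45076 and 53415 for FOXA2, 6130 and 6813 for FOXA3, 1375 for SOX2 and 7895 for the fusion. They were cut at different limits of the irreproducible discovery rate (IDR), a measure of how far the replicates disagree on the rank of a peak: the weakest peak had an IDR of 0.2, 0.0501, 0.351, 0.25, 0.1, 0.01, 0.1 and 0.92 in the same order. The full-length and CTD-deleted FOXA3 lists have 5012 identical rows in common, out of 6130 at full length, so these lists are not independent. The strength of a peak is given below as the authors' −log10 p in the replicate where it was lower, followed where useful by the higher value. These p-values depend on the depth of the libraries, which is unknown, so strengths are ranked only within a list, and peaks tied in strength take the best rank of the tie. Percentages carry Wilson 95% intervals, which cover counting error only.

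FABP1, the gene of the fatty acid-binding protein of liver (chr2:88122982-88128062, minus strand), had a peak directly before its start. A site at chr2:88128223-88128842 just upstream held a peak in all 4 FOXA1 and FOXA2 lists. Sequences of 250 bases before the transcription start, from RefSeq on GRCh38.p14, are shown on the gene's strand for 5 genes. The capitals mark a match, on either strand, to 1 of 3 forms of the forkhead motif: TGTTTGC or TGTTTAC or TATTTAC. FABP1 and AFP are shown because their windows met a peak, and ALB, G6PC1 and APOH because their windows hold a motif and met none.
FABP1: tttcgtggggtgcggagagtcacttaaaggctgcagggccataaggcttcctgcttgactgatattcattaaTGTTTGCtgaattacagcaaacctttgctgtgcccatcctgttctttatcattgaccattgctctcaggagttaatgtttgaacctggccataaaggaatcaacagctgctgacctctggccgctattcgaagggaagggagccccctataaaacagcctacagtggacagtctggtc
AFP: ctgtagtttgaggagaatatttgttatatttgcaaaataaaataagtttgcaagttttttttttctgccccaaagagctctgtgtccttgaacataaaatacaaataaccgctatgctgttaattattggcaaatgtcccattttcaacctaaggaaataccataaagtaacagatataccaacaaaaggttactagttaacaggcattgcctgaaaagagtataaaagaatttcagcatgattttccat
ALB: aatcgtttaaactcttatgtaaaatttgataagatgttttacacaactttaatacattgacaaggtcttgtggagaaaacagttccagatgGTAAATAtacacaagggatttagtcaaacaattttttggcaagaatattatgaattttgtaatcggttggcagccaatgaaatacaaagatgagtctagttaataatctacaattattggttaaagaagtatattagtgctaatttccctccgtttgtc
G6PC1: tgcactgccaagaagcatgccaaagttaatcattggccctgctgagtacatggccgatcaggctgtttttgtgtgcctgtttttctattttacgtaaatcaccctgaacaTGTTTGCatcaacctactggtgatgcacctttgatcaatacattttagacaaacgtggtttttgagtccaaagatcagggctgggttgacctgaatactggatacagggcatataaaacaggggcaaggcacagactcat
APOH: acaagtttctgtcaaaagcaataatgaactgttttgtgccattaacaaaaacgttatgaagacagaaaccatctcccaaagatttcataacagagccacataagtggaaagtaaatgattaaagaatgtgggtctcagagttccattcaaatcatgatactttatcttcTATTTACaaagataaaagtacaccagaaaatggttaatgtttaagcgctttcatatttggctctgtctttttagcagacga

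The window of FABP1 spans chr2:88128063-88128312, with TGTTTGC at chr2:88128234-88128240, its first base 178 bases before the start. With FOXA1 the peak had −log10 p values of 8.03 and 17.8 in both replicates and its summit 289 bases upstream. FOXA1 without its CTD gave 18.2 and 22.5, with the summit 367 bases upstream. At rank 389 of 50539, or the top 0.77%, this was the best-ranked peak near any of the 39 genes in any combined list. FOXA2 gave 4.79 and 7.3 with the summit at 382 bases, and FOXA2 without its CTD 10.1 and 10.5 with the summit at 366 bases. Ranked within their lists, the FABP1 peaks lay in the top 8.07% for FOXA1, 7.54% for FOXA2 and 2.77% for CTD-deleted FOXA2. The motif lay inside both FOXA1 peaks and outside both FOXA2 peaks. The FOXA2 peaks met 42 and 51 bases of the window against 85 and 90 for FOXA1. This is a difference in where the peak edges fell, and every summit at this site lay upstream of the window. The FOXA3 lists had no peak at this site. Their peak in the FABP1 window, with a strength of 7.24, was 47.8 kb downstream inside SMYD1.

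The other window met by a peak was that of AFP, the fetal counterpart of albumin, at chr4:73435971-73436220. The peak of CTD-deleted FOXA1 at chr4:73436191-73436920 took in its last 30 bases, with −log10 p values of 3.53 and 10.8 and a rank in the top 68.3%. None of the 3 forkhead motifs was in the AFP window. In ALB, GTAAATA, the reverse complement of TATTTAC, began 159 bases before the start. TGTTTGC began 140 bases before the start of G6PC1, and TATTTAC 81 bases before that of APOH.

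Promoter sequences were at hand for 29 of the 39 genes, with 38 starts between them. The remaining genes were APOC3, C3, TAT, TTR, PCK1, APOA1, HP, SERPINC1, APOB and IGFBP1. At least 1 of the 3 motifs was found in 16 of the 38 windows, or 42.1%, from 15 genes, against 6.82% of 22156 windows of protein-coding genes. The 3 motifs taken singly were in 2.46% (TGTTTAC), 2.75% (TGTTTGC) and 1.87% (TATTTAC) of all windows. They differ in their letters, so 1 stretch of sequence matches at most 1 of them. The member windows were richer in A and T, with a median of 52.6% against 38%, and the part of base composition in the motif share was not tested. CATTGTT, a form of the SOX motif, was in 0 of 38 windows and in 2.07% of all windows. A match to these letters is a description of the sequence and no evidence of binding.

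Few of these windows met a peak. FOXA1 peaks met 1 of the 38 windows, against 7.29% of windows of all protein-coding genes, and peaks of CTD-deleted FOXA1 met 2, against 1.64%. FOXA2 met 1, against 6.36%, and its CTD-deleted form 1, against 5.29%. Across all 8 lists 2 of 38 windows were met, both named above, against 15.4% of all windows. Among all windows with a forkhead motif, 20.5% met a peak in some list, and among the 16 member windows with a motif 1 did.

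Within 50 kb, peaks of FOXA1 and FOXA2 lay near about 7 in 10 of the liver genes, and so they did near all genes. FOXA1 had a peak near 28 of 39, or 71.8% (56.2 to 83.5), against 71.5% of all protein-coding genes. CTD-deleted FOXA1 had one near 27, or 69.2% (53.6 to 81.4), against 69.8%. FOXA2 had one near 27 as well, against 74.2% of all genes, and CTD-deleted FOXA2 near 29, or 74.4% (58.9 to 85.4), against 76.1%. In these 4 lists the share of liver genes was close to the background.

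FOXA3, whose lists are far shorter, had a peak near 10 of the 39 genes, or 25.6% (14.6 to 41.1), against 24.2% of all genes. Without its CTD it had one near 12, or 30.8% (18.6 to 46.4), against 27.3%. SOX2 had a peak near 0 of 39, against 0.891% of all genes, for which the Wilson interval reaches 8.97% and the limit of 3 counts that a count of 0 allows is 7.69%. The fusion had a peak near 6, or 15.4% (7.25 to 29.7), against 25.6% of all genes, a value inside that interval.

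**Figure D1:**
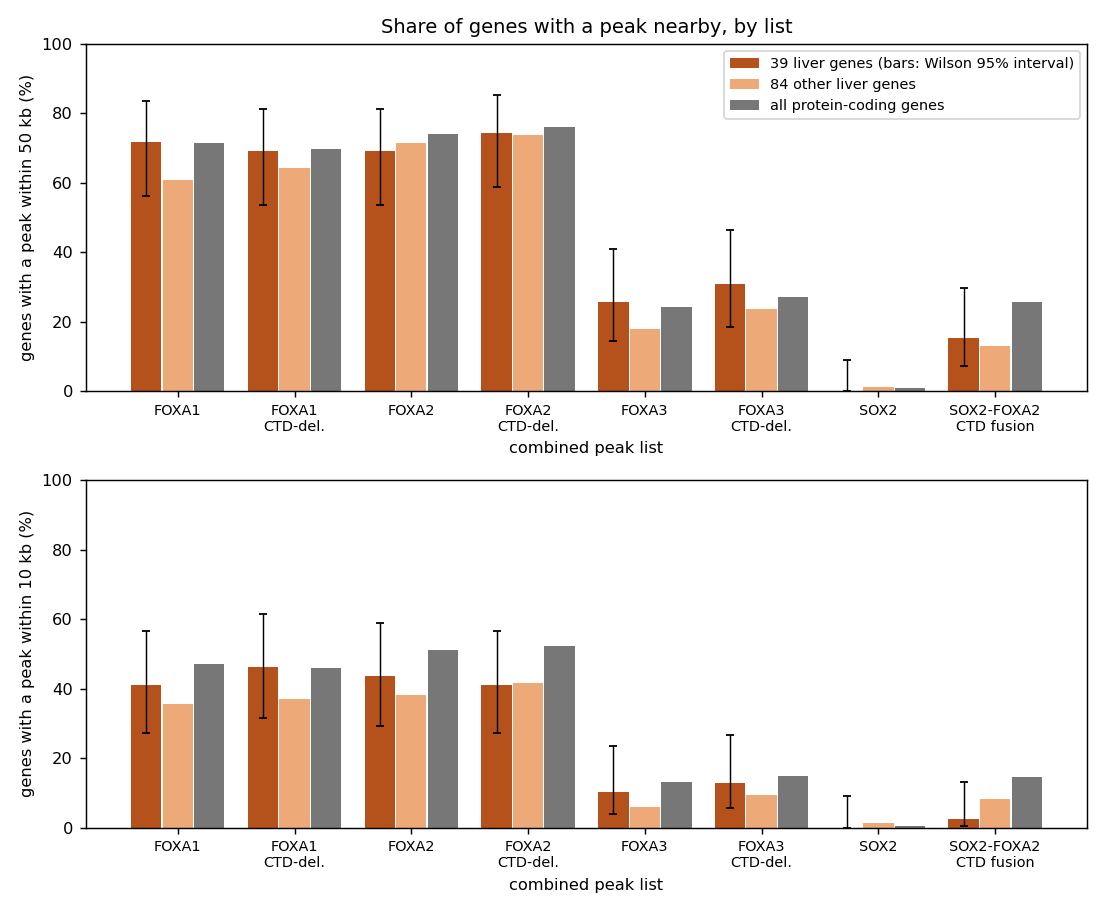
Percentage of genes with a peak summit within 50 kb (upper panel) or 10 kb (lower panel) of the gene, for each combined list; dark bars are the 39 liver genes with Wilson 95% intervals, light bars the 84 other liver genes and grey bars all 19974 protein-coding genes. The dark and grey bars stand close together at 50 kb in the 6 FOXA lists, from 71.8% against 71.5% for FOXA1 to 25.6% against 24.2% for FOXA3.

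Counting only peaks within 10 kb left the 4 lists of FOXA1 and FOXA2 near 16 (FOXA1), 18 (CTD-deleted), 17 (FOXA2) and 16 (CTD-deleted) of the liver genes. All genes had 47.2%, 45.9%, 51.2% and 52.3%, and the liver genes 41.0%, 46.2%, 43.6% and 41.0%. FOXA3 had a peak within 10 kb of 4 liver genes, against 13.2% of all genes, and its CTD-deleted form of 5, against 15%. SOX2 had 0, against 0.466%. The fusion had 1, or 2.56% (0.454 to 13.2), against 14.7% of all genes, a value above that interval. The liver genes are shorter than most, with a median span of 10.1 kb against 24.2 kb, so a window set from the ends covers less sequence around them. Counted by sequence in the 50 kb windows, the liver genes had 14.4 FOXA1 peaks per megabase against 13.4 for all protein-coding genes. CTD-deleted FOXA1 had 15.8 against 16.7, and peaks per megabase were not counted within 10 kb. FOXA2 had 15.8 against 15.7 and its CTD-deleted form 16.5 against 18.7. FOXA3 had 2.6 against 1.97, and 3.55 against 2.32 without its CTD. The fusion had 1.42 against 2.24.

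A further 84 liver genes, a list drawn up beside the 39, had shares of the same order. They numbered 51 with a FOXA1 peak within 50 kb (60.7%), 54 with CTD-deleted FOXA1 (64.3%), 60 with FOXA2 (71.4%) and 62 with CTD-deleted FOXA2 (73.8%). FOXA3 peaks lay near 15 (17.9%), those of its CTD-deleted form near 20 (23.8%), those of SOX2 near 1 (1.19%) and those of the fusion near 11 (13.1%). These shares were all below those of all genes given above, except that of SOX2.

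Across lists, 10 of the 39 genes had a peak in all 6 FOXA lists, or 25.6% against 20.7% of all genes. They were the carrier TF, the lipid genes APOB, APOH and FABP1, the clotting and matrix genes PLG and VTN, the inhibitor AHSG, the enzymes G6PC1 and PCK1, and IGFBP1. All 4 lists of FOXA1 and FOXA2 marked 22 genes, or 56.4% against 53.2%. No list had a peak near 5 genes, or 12.8% against 10.8%: TDO2, an enzyme of tryptophan breakdown, the apolipoproteins APOA4 and APOC3, the corticosteroid carrier SERPINA6, and coagulation factor F9.

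**Figure D2:**
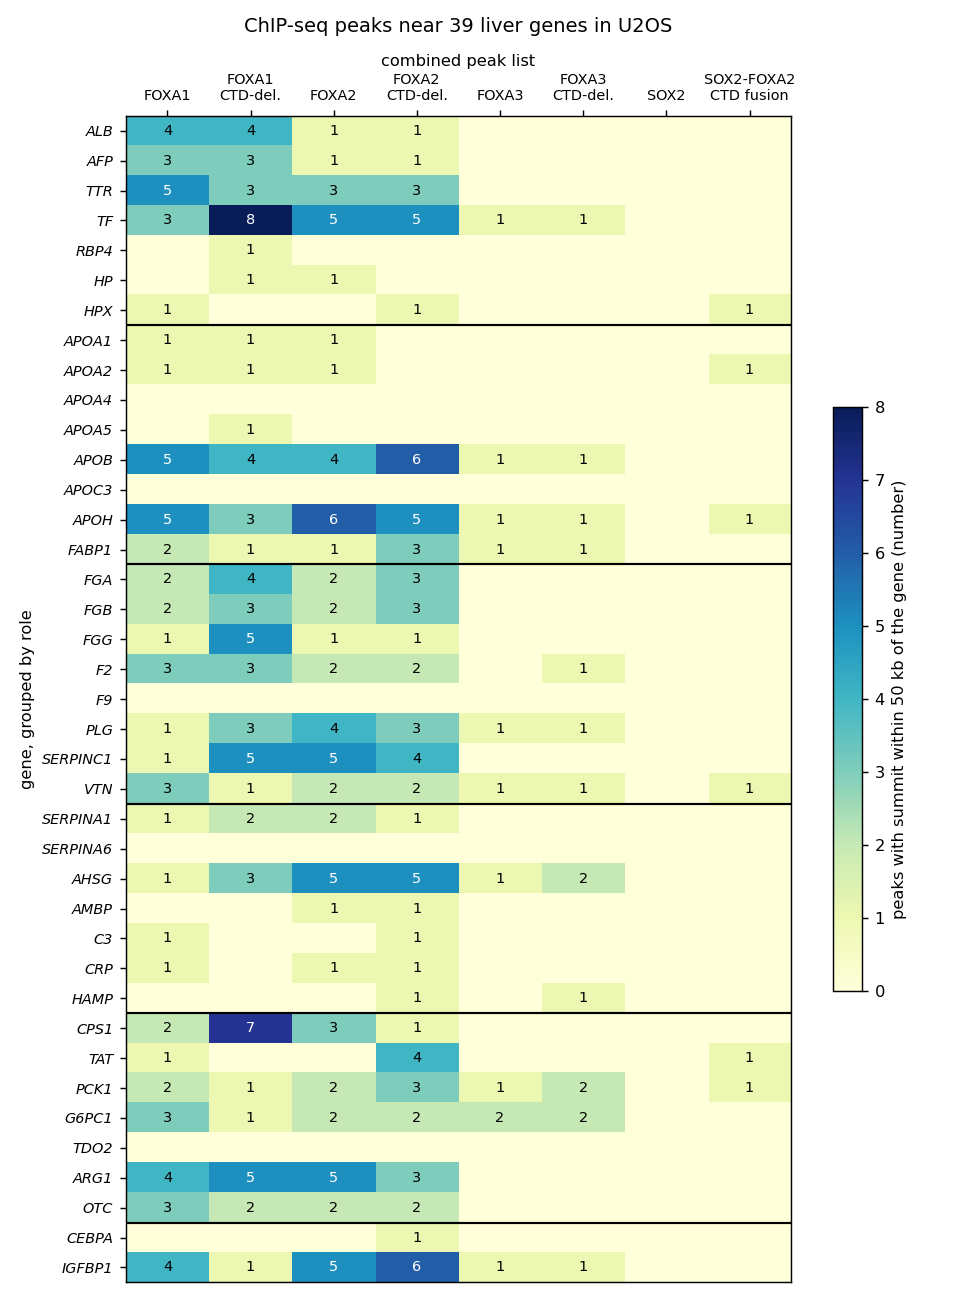
Number of peaks with a summit within 50 kb of each of the 39 genes (rows, grouped by role) in each combined list (columns); empty cells hold 0 peaks. The 4 FOXA1 and FOXA2 columns are filled for 27 to 29 genes, the FOXA3 columns for 10 and 12, the SOX2 column for 0 and the fusion column for 6, and no cell exceeds 8 peaks.

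The counts by role below stand beside 71.5%, 69.8%, 74.2% and 76.1% of all genes in the 4 FOXA1 and FOXA2 lists. All genes had 24.2% and 27.3% in the FOXA3 lists and 25.6% with the fusion. Whether any role differs from all genes was not tested. Among the plasma carriers, peaks of the 4 FOXA1 and FOXA2 lists lay near 5, 6, 5 and 5 of 7 genes, and FOXA3 near 1. TF, which encodes the iron carrier transferrin (chr3:133661998-133796641), was that gene. Its main site at chr3:133796301-133797973 lies just beyond its end, inside the neighbouring gene SRPRB. The strength there was 9.08 for CTD-deleted FOXA1, 2.74 for FOXA2, 7.81 for CTD-deleted FOXA2 and 9.42 in both FOXA3 lists, where the row is one of those the lists share. Full-length FOXA1 had no peak at that site, and its strongest peak near TF, 30.1 kb downstream, had a strength of 4.08. CTD-deleted FOXA1 had 8 peaks around TF, the most near any of the 39 genes in any list.

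TTR, the carrier of thyroid hormone and retinol-binding protein (chr18:31591877-31598821), had a site 1.2 kb outside the gene in all 4 FOXA1 and FOXA2 lists. With FOXA1 the peak at chr18:31590181-31591255 had −log10 p values of 9.08 and 29.7, in the top 5.38% of the list. CTD-deleted FOXA1 gave 8 and 13.7 there, FOXA2 4.33 and 4.71, and CTD-deleted FOXA2 3.62 in both replicates. Full-length FOXA1 thus had the higher rank of its pair at TTR, the reverse of the order at FABP1.

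ALB, the gene of albumin (chr4:73404287-73421482), had a site 2.64 kb upstream at chr4:73401198-73402434 in both FOXA1 lists, with strengths of 6.31 at full length and 5.41 without the CTD. Neither FOXA2 list had a peak there. FOXA2 had its only peak near ALB 23.4 kb upstream with a strength of 1.74, and CTD-deleted FOXA2 one 5.51 kb upstream with a strength of 2.8. AFP, next to ALB, shared the ALB site with a summit 34.6 kb away in both FOXA1 lists, and FOXA2 had a peak of strength 1.74 inside AFM, 27.6 kb downstream of AFP. HPX, which binds haem, had a FOXA1 peak of strength 3.44 and a CTD-deleted FOXA2 peak of 2.17, both inside the gene. HP, which binds haemoglobin, and RBP4, the retinol carrier, had peaks in 2 and 1 lists.

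For lipid transport, the 4 lists reached 5, 6, 5 and 3 of 8 genes, both FOXA3 lists 3, and the fusion 2. APOB, the core protein of liver lipoproteins (chr2:21001429-21044073), held a site within the gene at chr2:21038544-21039432 in 5 FOXA lists. Its strength was 6.43 for CTD-deleted FOXA1, 2.44 for FOXA2, 6.19 for CTD-deleted FOXA2 and 10.6 in the row both FOXA3 lists share. Full-length FOXA1 had no peak at this site, and its strongest peak near APOB, 3.17 kb outside the gene, had a strength of 5.33.

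APOH, a plasma glycoprotein that binds phospholipid (chr17:66212033-66229415), held the strongest FOXA1 peak near any of the 39 genes. It lay 11.1 kb downstream at chr17:66200482-66201192 with −log10 p values of 12.7 and 15.5, in the top 1.6%. All 4 FOXA1 and FOXA2 lists had a peak there, with strengths of 7.29 for CTD-deleted FOXA1, 4.79 for FOXA2 and 3.16 for CTD-deleted FOXA2. A second site 25.8 kb upstream was in the lists of full-length FOXA1 (6.34) and FOXA2 (5.95), and in both FOXA3 lists (12.5) in a row that they share. It was in neither CTD-deleted list of FOXA1 and FOXA2. APOA2, a protein of high-density lipoprotein, had a peak of strength 2.96 or less in 3 of those 4 lists, each at a different place. APOA1, its main partner in that particle, had a peak 45.9 or 46.0 kb away inside SIK3 in 3 lists. APOA5 had 1 peak, of CTD-deleted FOXA1, with a strength of 3.23.

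In coagulation and fibrinolysis, each of the 4 FOXA1 and FOXA2 lists had a peak near 7 of 8 genes, all but F9. All genes had 69.8% to 76.1% in those lists. The FOXA3 lists had a peak near 2 and 3 of the 8. Of the 7 genes near FOXA1 and FOXA2 peaks, 3 are the fibrinogen genes, which share a locus and its peaks. PLG, the precursor of plasmin (chr6:160702193-160754097), had a site 2.2 to 2.3 kb upstream at chr6:160699374-160700333. The strength there was 8.6 for CTD-deleted FOXA1, with 32.7 in the other replicate. It was 3.84 for FOXA2, 8.15 for CTD-deleted FOXA2 and 6.66 in the shared FOXA3 row. Full-length FOXA1 had no peak at the site, and had 1 peak near PLG, of strength 3.23 and 13.7 kb downstream.

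F2, the gene of prothrombin (chr11:46719213-46739506), carried a site inside the gene at chr11:46736291-46737424. FOXA1 gave 5.3 there, CTD-deleted FOXA1 2.69, FOXA2 2.46, CTD-deleted FOXA2 6.19 and CTD-deleted FOXA3 5.61. VTN, the gene of the plasma and matrix protein vitronectin (chr17:28367284-28370307), had its strongest peaks 39.7 kb upstream, closer to SLC46A1. Their strengths were 6.78 for FOXA1, 12.9 for CTD-deleted FOXA1, 4.9 for FOXA2 and 9.67 for CTD-deleted FOXA2, the last in the top 3.07%. SERPINC1, which encodes antithrombin (chr1:173903800-173917327), had peaks 38.1 to 39 kb away beside ZBTB37. Strengths there were 4.73 for FOXA1, 2.96 for CTD-deleted FOXA1, 6.68 for FOXA2 and 5.86 for CTD-deleted FOXA2. The strongest CTD-deleted FOXA1 peak near SERPINC1, at 4.99, lay 8.56 kb away, at a site also in the full-length FOXA2 list. The 3 fibrinogen genes FGA, FGB and FGG, which lie side by side, share a site within FGB near the start of that gene. FOXA1 had a strength of 3.45 there, CTD-deleted FOXA1 4.08 and FOXA2 1.59, all below the middle of their lists.

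Among the inhibitors and inflammatory proteins, FOXA1 had a peak near 4 of the 7, CTD-deleted FOXA1 near 2, FOXA2 near 4 and CTD-deleted FOXA2 near 6. AHSG, an inhibitor of mineral deposition in plasma (chr3:186613060-186621318), was the member with a FOXA3 peak at full length. A site 48.1 or 48.2 kb upstream, inside TBCCD1, was in all 4 FOXA1 and FOXA2 lists with strengths of 4.54, 6.95, 4.61 and 5.63. Nearer sites, 22.9 kb and 7.59 to 7.83 kb upstream, were in 3 of those lists and absent from that of full-length FOXA1. CTD-deleted FOXA1 reached 7.49 at the nearest site and CTD-deleted FOXA2 6.78.

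SERPINA1, the gene of alpha-1 antitrypsin (chr14:94376747-94390635), had a site 16.6 kb upstream with strengths of 4.96 for CTD-deleted FOXA1, 2.02 for FOXA2 and 4.78 for CTD-deleted FOXA2. At the site 12.1 kb upstream FOXA1 gave 4.08, CTD-deleted FOXA1 also 4.08, and FOXA2 1.59. CRP, an acute-phase protein, had weak peaks 38.8 to 40.6 kb upstream, near DUSP23. The FOXA1 peak, at 4.35, had the best rank within its list (top 41.6%). HAMP, which encodes the iron hormone hepcidin, had peaks 33.8 kb upstream near LSR in the CTD-deleted lists of FOXA2 (2.42) and FOXA3 (6.05). C3, the central complement protein, had a FOXA1 peak of 4.08 inside the gene. AMBP had 1 peak in each FOXA2 list, at 1.59 and 3.13.

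Metabolic enzymes were reached 6, 5, 5 and 6 times of 7 in the 4 lists, and 2 times by each FOXA3 list and by the fusion. G6PC1, the liver enzyme that releases free glucose (chr17:42900799-42914438), had a site shared by all FOXA proteins. It was the single merged site of 150 with a peak in all 6 FOXA lists, 4.59 kb downstream at chr17:42918813-42919389. The −log10 p values of both replicates were 6.68 and 8.12 for FOXA1, 6.68 and 22.3 for CTD-deleted FOXA1, and 5.08 and 6.68 for FOXA2. They were 7.99 and 31.6 for CTD-deleted FOXA2, and 10.7 and 29.1 in the row both FOXA3 lists hold. These peaks ranked between the top 5.27% and the top 19.6% of their lists. In the windows of all protein-coding genes 1.82% of merged sites had a peak in all 6 FOXA lists, against 0.667% here.

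PCK1, a rate-limiting enzyme of glucose production (chr20:57561110-57568121), had a site at chr20:57581965-57583305, 14.3 to 14.8 kb outside the gene, in 6 lists. Its strength was 8.35 for FOXA1 and 3.4 without the CTD, 2.2 for FOXA2 and 4.39 without the CTD, 5.49 for CTD-deleted FOXA3 and 3.15 for the fusion. The strengths of the FOXA1 pair and the FOXA2 pair had opposite orders at PCK1, but strengths are not comparable between lists of unknown depth. Ranked within its list, the peak there was in the top 7.43% for FOXA1, 75.4% for CTD-deleted FOXA1 and 50.7% for FOXA2. ARG1, the last enzyme of the urea cycle (chr6:131573226-131584329), had a site 16.1 kb upstream with strengths of 4.28, 7.19, 4.8 and 5.9 in the 4 lists. The ARG1 peak with the best rank within its list, of CTD-deleted FOXA1 at 10.6 (top 5.35%), lay 13.4 kb downstream inside MED23.

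CPS1 and OTC, which carry out the first steps of the urea cycle, had only weaker peaks. Across the long CPS1 gene (chr2:210477685-210679107) the strongest per list were 4.08, 4.06, 2.02 and 3.33. OTC had 4.08, 2.69, 3.23 and 3.13, all in or beside RPGR, the gene next to it. The FOXA1 summit among these was 49 bases from RPGR and 126 bases upstream of the OTC span, at a site that CTD-deleted FOXA2 shared. It was not at the promoter window searched for OTC, chrX:38352354-38352603, which lies further in, inside that span. TAT, an enzyme of tyrosine breakdown, had a peak at 1 end of the gene in the lists of FOXA1 (2.67) and CTD-deleted FOXA2 (2.95).

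Of the 2 regulators, IGFBP1, which binds insulin-like growth factors (chr7:45888488-45893660), was reached by all 6 FOXA lists. Its strongest peaks lay 32.0 or 32.1 kb away near CCDC201, with strengths of 8.66 for FOXA1, 7.6 for FOXA2 (top 1.89%) and 7.81 for CTD-deleted FOXA2. CTD-deleted FOXA1 had no peak at that site, and its peak near IGFBP1, at 34.1 kb, had a strength of 2.69. The FOXA3 peak, at 6.99, lay 29.3 kb away beside IGFBP3. CEBPA, a liver and fat transcription factor, had 1 peak, of CTD-deleted FOXA2 with a strength of 2.56, lying 6.38 kb downstream.

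**Figure D3:**
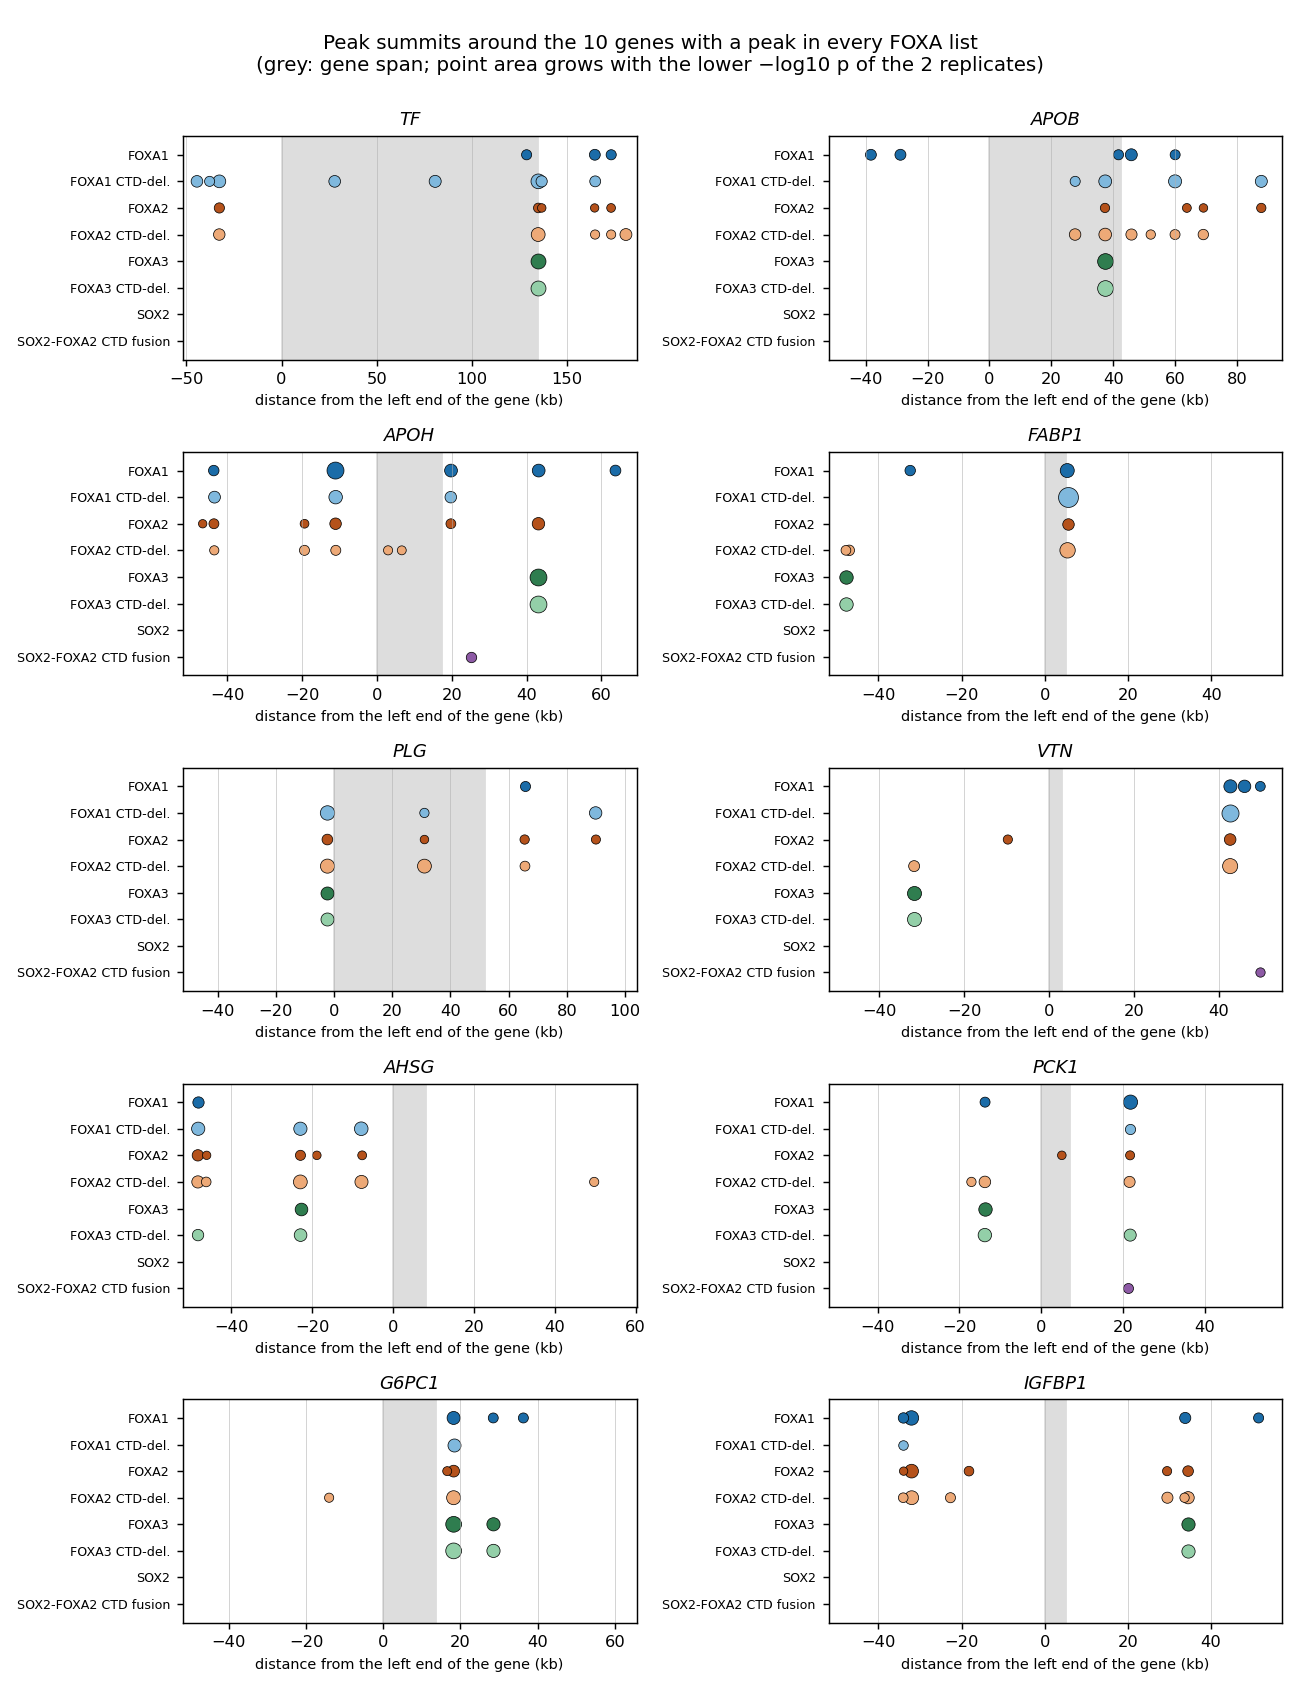
Positions of peak summits around the 10 genes with a peak in every FOXA list, as distance in kb from the left end of the gene (grey band, the gene span); rows are the combined lists and point area grows with the lower −log10 p of both replicates. At G6PC1 the points of all 6 FOXA lists stack about 4.6 kb beyond the gene, whereas at FABP1 the FOXA1 and FOXA2 points sit at the gene and the FOXA3 points 47.8 kb away.

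FOXA1 had 24 of the 39 genes with a peak both with and without its CTD, or 61.5%, against 60.1% of all genes. At full length only, there were 4, CRP, HPX, TAT and C3, against 11.4% of all genes, and 3 after deletion only, RBP4, APOA5 and HP, against 9.69%. The share after deletion minus that at full length was -2.56 percentage points, with a Newcombe 95% interval from -22.1 to 17.2. That interval treats both shares as independent, although the same 39 genes were scored in both lists. FOXA2 likewise had 24 genes in both forms, against 66.5% of all genes. At full length only, there were 3, APOA1, APOA2 and HP, against 7.78%, and after deletion only 5, HPX, TAT, C3, CEBPA and HAMP, against 9.61%. The FOXA2 difference was 5.13 points, from -14.6 to 24.3 by the same unpaired interval. HPX, TAT and C3 were thus in the full-length group of the FOXA1 pair and the CTD-deleted group of the FOXA2 pair. The share of all genes with that pattern was not counted. Near HPX and C3 the peaks of both lists were at different sites, and near TAT both lists had a peak at a shared site.

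FOXA3 had 0 genes at full length only, against 0.165% of all genes, and 2 after deletion only, F2 and HAMP, against 3.31%. All 11 full-length FOXA3 peaks in the member windows were rows that the CTD-deleted list also holds, so 0 of the 39 genes had a FOXA3 peak from rows of the full-length list alone. This pair therefore gives no separate full-length value for these genes.

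The counts of the FOXA1 and FOXA2 pairs depended on how many peaks of each list were taken. With equal numbers of the strongest peaks, FOXA1 had a peak near 28 genes and its CTD-deleted form near 21, while all genes had 71.5% and 61.6%. The FOXA2 counts were then 27 and 28, with 74.2% and 72.5% of all genes. At the stricter limit of the pair, an alternative added after the data were seen, FOXA1 had a peak near 12 genes and its CTD-deleted form near 27, while all genes had 37.8% and 69.8%. The FOXA2 counts were then 19 and 29, with 63.3% and 76.1% of all genes. The CTD-deleted count was thus the higher at that limit for all genes as well, and the sign of the FOXA1 difference was not the same across these settings.

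Peaks of a pair near the same gene were often not the same peak. In the member windows 27 of 61 FOXA1 peaks (44.3%) overlapped a peak of its CTD-deleted form, against 54% of FOXA1 peaks in the windows of all genes. Seen from the other side it was 27 of 67 (40.3%), against 43.3%. For FOXA2 it was 36 of 67 (53.7%), against 51.1%, and 36 of 70 (51.4%), against 42.9%. Merged over all lists, the windows held 150 sites, of which 77 (51.3%) were in exactly 1 of the 4 FOXA1 and FOXA2 lists and 14 (9.33%) in all 4. All protein-coding windows had 51.6% and 9.17%. Within the FOXA1 pair, 34 of the 150 sites had a peak at full length only and 40 after deletion only. Among 69687 sites in all protein-coding windows these were 11367 and 17484. Whether any of these shares differs from those of all genes was not tested. Every one of the 15 FOXA3 sites also had a FOXA1 or FOXA2 peak, against 4114 of 4362 in the windows of all genes.

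The median rank of these peaks was between the top 47.2% and the top 54.5% in the FOXA1 and FOXA2 lists. In the FOXA3 lists it was 61.4% at full length and 63.7% without the CTD. The median strength in the member windows was 3.98 for FOXA1 against 4.08 in its whole list, and 4.08 against 4.34 for its CTD-deleted form. For FOXA2 it was 2.14 against 2.24, and 3.04 against 2.96 for its CTD-deleted form. FOXA3 peaks had a median of 7.24 against 7.9, and 6.99 against 7.75 without the CTD. The top 10% of a list held 6 of 61 FOXA1 peaks, 5 of 67 of CTD-deleted FOXA1, 10 of 67 of FOXA2, 11 of 70 of CTD-deleted FOXA2, and 0 for FOXA3 and the fusion. Of the 61 FOXA1 peaks 38 lay over 10 kb from the member, and 28 (45.9%) lay inside or closest to some other protein-coding gene. In the remaining FOXA lists that share was between 44.8% and 55.2%.

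**Figure D4:**
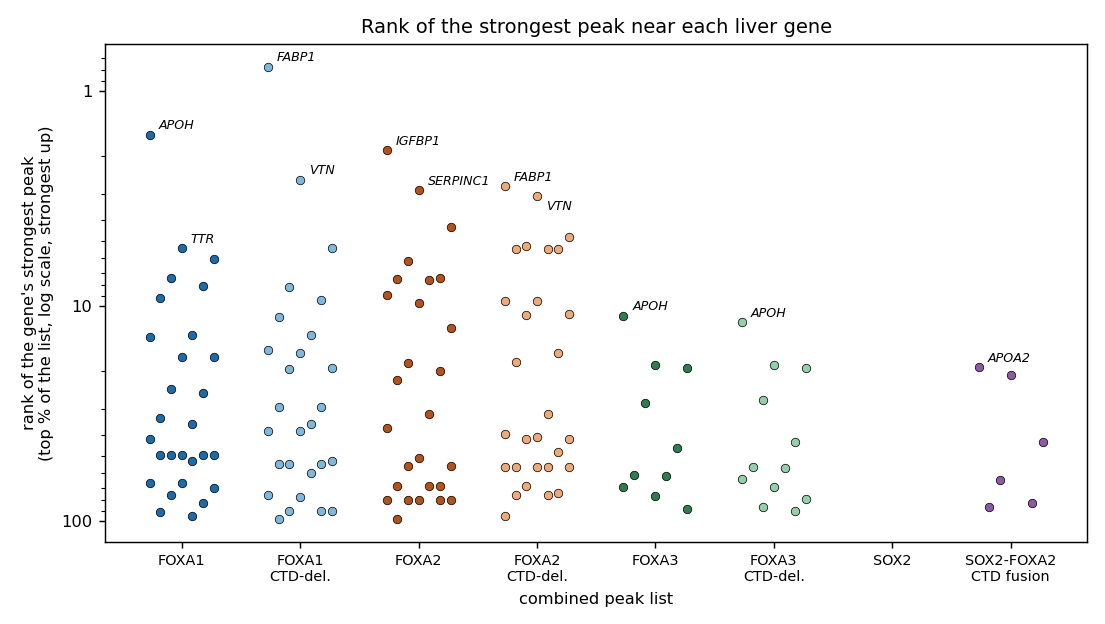
Rank of the strongest peak near each liver gene, as top percent of its list on a log axis with the strongest at the top; each point is 1 gene with a peak in that list, the sideways spread only separates points, and the highest 1 or 2 genes per list are named. FABP1 stands highest with CTD-deleted FOXA1 (top 0.77%), APOH with FOXA1 (1.6%) and IGFBP1 with FOXA2 (1.89%), and the SOX2 column has no points.

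The fusion of SOX2 with the FOXA2 CTD had a peak near 6 genes where SOX2 had 0: HPX, APOA2, APOH, VTN, TAT and PCK1. All genes gave 24.9% with a peak of the fusion only and 0.18% with a peak of SOX2 only. The strengths were 2.41 for HPX, 3.75 for APOA2, 3.57 for APOH, 2.47 for VTN, 2.57 for TAT and 3.15 for PCK1, with a median of 2.86 against 2.98 in the whole fusion list. The fusion list was cut at an IDR of 0.92, and at the limit of the SOX2 list it had a peak near 0 of the 39 genes, with 0.401% of all genes. With equal numbers of the strongest peaks the count was also 0, against 2.26%. Of its 6 sites, 2 also held a FOXA peak, those of VTN and PCK1, against 1209 of 4153 fusion sites near all genes. FABP1, TTR, ALB and G6PC1 had no fusion peak.

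Lists of the first replicate alone were used for SOX2 and the fusion and were called without the second replicate. SOX2 then had 13977 peaks and a peak near 7 genes (17.9%), APOB, CPS1, AHSG, ALB, PLG, G6PC1 and PCK1, against 30.8% of all genes. The fusion had 42705 peaks and reached 21 genes (53.8%), against 67%, and these included the 6 of its combined list. Of the 6 combined peaks near those genes, 5 overlapped a first-replicate peak, and that of PCK1 did not. Both shares were below the background of their list. In APOB both had a peak at the site that 5 FOXA lists share, with a fold enrichment of 4.12 and a −log10 p of 4.9 for SOX2, and 6.43 and 9.07 for the fusion. Neither of these peaks was kept in a combined list.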

How the data were processed

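Flag ChIP-seq of 8 factor groups in U2OS, 2 replicates each with 1 input, was used as peak lists. Of 14 deposited lists, 8 combined lists and 2 lists of the first replicate (SOX2 and the fusion) were used, and 4 were byte-for-byte copies. The submitters' processing notes name the build hg38 and FastQC 0.10.1, Trim Galore, Bowtie2 2.4.4, SAMtools 0.1.18, MACS2 and deepTools 2.4.1, without role or order. The control and the IDR limits are not given in the sources used here. The combined lists have the 20-column layout of the IDR program. Their deposited score is 125 times log2 of 1 over the IDR, so a score of 830 marks an IDR of 0.01. The authors' −log10 p values of both replicates carry no replicate number, so the lower and the higher value are given. The first-replicate lists hold the authors' fold enrichment, a ratio, and −log10 p. All such values describe and rank peaks within a list. Reads were not used, so depth is unknown.

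Peaks on chromosomes 1 to 22 and X were joined to RefSeq genes (GRCh38.p14) with Python 3.11.15, pandas 2.3.3 and numpy 2.4.6, tested on simulated data. RefSeq gives gene ends, and strand only where the promoter table holds the gene, so some distances have no direction. Peaks overlapped when they shared at least 1 bp, and overlapping peaks of all lists were merged to sites. Intervals are Wilson and Newcombe 95% intervals. The Newcombe intervals ignore that both lists of a pair were scored on the same 39 genes. No p-value was computed. Up to 4 genes a role with a peak in the most lists were described fully, ties going to the stronger peak (CPS1 and OTC tied), with the genes that had no peak; the rest were chosen after their values were seen. The promoter and motif search was likewise added later. The 39 genes, their roles and the 84 other liver genes were chosen with earlier results of these data known.

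The alternatives were windows of 10 and 100 kb, an IDR of at most 0.01, equal numbers of peaks and any base of a peak in the window. Loci in place of genes, identical FOXA3 rows left out, all annotated genes and the first-replicate lists were further alternatives. Chosen after seeing the data were a pair's stricter IDR limit in both lists, identical rows left out of both FOXA3 lists for the difference, the first-replicate difference, and the windows and IDR limit for the other liver genes.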

Additional observations from a re-analysis of the deposited data

How the results depend on the processing

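Of 119 alternative values of 28 results, 70 moved by no more than the counting error of the reported value or a factor of 1.5, and 49 moved further. For the differences between lists, that error was the Newcombe interval, which ignores the pairing of genes. The difference between CTD-deleted and full-length counts changed sign: for FOXA1 it was -1 as reported, 2 within 10 kb, 0 within 100 kb and -7 with equal numbers of peaks, and for FOXA2 2 as reported, -1 within 10 kb, 0 within 100 kb and 1 with equal numbers. Within 10 kb the liver genes with a peak numbered 16 for FOXA1, 17 for FOXA2, 16 for CTD-deleted FOXA2, 4 and 5 for FOXA3 without and with the deletion, and 1 for the fusion, also its difference from SOX2. At an IDR of at most 0.01 they numbered 6 for FOXA1, 0 for FOXA2, whose list has no such peak, 11 for CTD-deleted FOXA2 and 0 for the fusion. The CTD-deleted counts then exceeded full length by 14 (FOXA1) and 11 (FOXA2), and the fusion exceeded SOX2 by 0. At that limit the FOXA1 pair had 15.4% and 51.3% of the liver genes, against 14.8% and 51.8% of all genes. The FOXA2 pair had 0% and 28.2%, against 0% and 23.9%. The stricter limit of a pair, chosen after seeing the data, gave 12 for FOXA1 and 0 for the fusion, and differences of 15 (FOXA1), 10 (FOXA2) and 0 (fusion). Equal numbers of peaks gave 0 for the fusion and for its difference. Of the 32 loci, 25 and 23 had a peak for FOXA1 and 24 and 26 for FOXA2, full length before CTD-deleted. With a peak of FOXA3 there were 10 and 12 loci, with SOX2 0 and with the fusion 6. Without the identical rows FOXA3 had 0 genes, and leaving them out of both lists gave 0 and, after deletion, 4. The first replicate alone gave 7 for SOX2, 21 for the fusion and a difference of 14.

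For the 84 other liver genes, with alternatives chosen after seeing the data, 10 kb gave 30 and 31 for FOXA1, 32 and 35 for FOXA2, 5 and 8 for FOXA3, each full-length value before the CTD-deleted one, and 7 for the fusion. A window of 100 kb gave 24 for FOXA3 and 20 for the fusion. An IDR of at most 0.01 gave 7 for FOXA1, 0 for FOXA2, 23 for CTD-deleted FOXA2, 0 for SOX2 and 0 for the fusion. Counting all annotated genes in place of protein-coding ones moved the background from 71.5% to 66.6% for FOXA1 and from 0.891% to 0.739% for SOX2. The shorter windows and stricter limits count fewer peaks by construction.

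No paired analysis was possible because each group is 1 combined list and the replicate columns carry no number. Leaving out a replicate was possible only as the first-replicate lists. The unknown depth limits how far peak numbers, and so these counts, can be compared between lists.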
